A study of Mus musculus with 6 samples.

Results

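The Scart genes are a pair of neighbouring mouse genes for scavenger receptor cysteine-rich (SRCR) proteins of the cell surface, 5830411N06Rik (also named Scart2, gene number 244234) and Cd163l1 (also named Scart1, gene number 244233). They were picked by symbol and are 2 of the 16749 genes listed in at least 1 library. Both were chosen because they stood higher in Id2 knockout cells in these same libraries. Their difference between the groups is therefore described here. Both were in the fit of all genes, but no test of them is given.

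RNA was sequenced in 6 libraries of CD8+ T cells, isolated by FACS from a C57BL/6 tissue that the submitters abbreviate as iLN. Per the series title the mice bore tumors and had been given oxaliplatin, a platinum drug that damages DNA. In the 3 WT libraries the genotype was Id2f/f, floxed Id2 without Cre, and in the 3 knockout libraries it was Cd4creId2f/f. Every mouse therefore carried floxed Id2, and Cre was in the knockout group only, so effects of Cre and of the loss of Id2 cannot be told apart. Cd4-Cre acts in T cells from the thymus on, so deletion is not limited to the time of tumor growth or treatment. The labels do not say which animals the libraries came from, and p-values measure only the spread between these libraries, which may be technical.

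SRCR domains are folded, disulfide-bonded modules found in many surface and secreted proteins of immune cells. The Scart proteins carry several of them in a row and are relatives of CD163, a receptor of macrophages, and of WC1, a coreceptor of gamma delta T cells in cattle. In mice they are best known from gamma delta T cells, above all those that make IL-17. E proteins are transcription factors that bind DNA at the E box, a 6-base motif whose letters are CANNTG, and Id2 pairs with them and keeps them off DNA.

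The libraries held between 7699181 and 8495123 expected counts, the reads that the counting tool assigned to genes. Levels are given in FPKM, which divides the reads of a gene by transcript length and library size, and means are given ± SD over 3 libraries. Of the 10890 genes with at least 1 FPKM in at least 3 libraries, 342 were higher in knockout (3.14%) and 955 lower (8.77%), 1297 together (11.9%), by the quasi-likelihood test of edgeR at an adjusted p of 0.05. Leaving out knockout replicate 3 gave 84 higher and 517 lower genes, and leaving out WT replicate 3 gave 121 and 564. The higher genes numbered 213 when knockout replicate 1 was dropped and 210 when WT replicate 2 was. Id2 itself stood at 370.98, 146.76 and 149.01 FPKM in WT and at 1.67, 2.64 and 2.12 in knockout, a log2 difference of -6.72 (SE 0.474; edgeR, adjusted p = 8.47e-05), which was -6.08 without WT replicate 1. The sorted cells carried the defining transcripts of their label: Cd8a averaged 212 ± 10.9 FPKM (WT) and 214 ± 17.8 (knockout), and Cd4 at no more than 2.97 FPKM in any library.

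Both Scart genes lie on the plus strand of chromosome 7 in the mm10 build. GENCODE M21 places Cd163l1 at 140218267 to 140231145 and 5830411N06Rik at 140247284 to 140300736, with 16.1 kb between them. The principal coding transcripts of Cd163l1 have 14 exons and 2967 coding bases, and that of 5830411N06Rik has 16 exons and 3336 coding bases. The promoters of both are shown because Id2 acts on factors that bind the E box. Any part of those factors in the Scart levels was not tested. Each is the RefSeq window (build GRCm38.p6) from 250 bases before to 50 bases after a transcript start, on the plus strand, with every E box in capitals. The first lies at chr7:140218017-140218316 and the second, which belongs to the principal coding transcript, at chr7:140247128-140247427.
Cd163l1: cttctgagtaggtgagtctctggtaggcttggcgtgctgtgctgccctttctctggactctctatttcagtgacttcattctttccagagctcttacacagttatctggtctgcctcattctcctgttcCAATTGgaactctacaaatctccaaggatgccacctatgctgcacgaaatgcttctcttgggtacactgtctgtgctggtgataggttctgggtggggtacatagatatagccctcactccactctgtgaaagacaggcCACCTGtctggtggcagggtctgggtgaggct
5830411N06Rik: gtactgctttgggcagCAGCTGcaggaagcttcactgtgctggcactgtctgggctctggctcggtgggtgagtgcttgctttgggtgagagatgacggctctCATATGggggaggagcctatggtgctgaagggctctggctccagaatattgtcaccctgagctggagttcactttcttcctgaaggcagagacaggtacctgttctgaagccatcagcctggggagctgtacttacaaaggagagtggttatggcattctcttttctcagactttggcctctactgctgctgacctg
The Cd163l1 window held 2 E boxes, CAATTG at 121 bases upstream of the start and CACCTG at 19 bases downstream. The 5830411N06Rik window also held 2, CAGCTG at 234 bases upstream and CATATG at 147. RefSeq gives 5830411N06Rik a further pair of starts with overlapping windows, 1 of which holds a second CAGCTG, 3 E boxes in all. For Cd163l1 the RefSeq span begins further upstream, at 140197218, and no window there is shown. E boxes are common letters: 72.3% of the 32851 promoter windows of this length held at least 1 and 39.6% held 2 or more. The letters CAGCTG stood in 16.3% of them, and CAGGTG or its complement CACCTG in 20.2%. CANNTG and CAGCTG read the same on both strands, and the latter is counted within the former. None of these matches says that a factor binds there.

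5830411N06Rik was the more changed of the pair. It stood at 3.62, 5.5 and 5.89 FPKM in WT replicates 1 to 3 and at 29.07, 47.53 and 31.08 FPKM in the knockout replicates. The lowest knockout library was 4.93 times the highest WT library, so the groups were far apart. The means were 5 ± 1.21 and 35.9 ± 10.1 FPKM, from 386 reads in WT and 2548 in knockout. The fitted log2 fold change was 2.81 (SE 0.213), or 7.03-fold, and 2.59 without knockout replicate 2, its highest library. Placed by fold among the 342 higher genes it held place 2, which only describes it, since this difference chose the gene. Its place among all genes differed too: in WT it exceeded between 23.1% and 32% of the tested genes in a library, and in knockout between 73.5% and 82.7%.

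Cd163l1 differed less, and its groups came closer. It stood at 5.75, 8.3 and 9.32 FPKM in WT and at 16.59, 18.71 and 12.99 FPKM in knockout. The lowest knockout library, replicate 3, was 1.39 times the highest WT library. The means were 7.79 ± 1.84 and 16.1 ± 2.89 FPKM, from 684 and 1315 reads, and the fitted log2 fold change was 1.03 (SE 0.181), or 2.05-fold. It exceeded between 33.4% and 43.1% of the tested genes in a WT library and between 53.3% and 61.8% in a knockout library. For both genes all knockout libraries lay above all WT libraries, as they did for 15.3% of the tested genes, while the opposite order held for 16.8%. Since these values chose the genes, nothing is read from that share. In bulk RNA, fewer or more cells that carry a transcript and less or more of it per cell cannot be told apart.

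**Figure D1:**
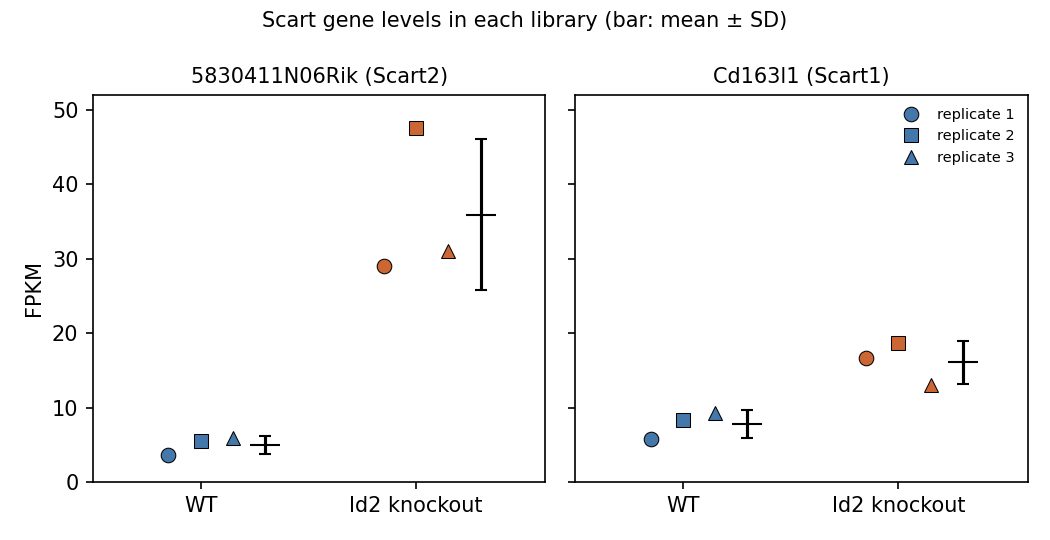
FPKM (linear axis from 0) of 5830411N06Rik and Cd163l1 in each of 3 WT and 3 Id2 knockout libraries, with 1 symbol per replicate number and the group mean ± SD as a bar. All knockout points lie above all WT points for both genes, by a wide margin for 5830411N06Rik and by 1.39 times at the closest for Cd163l1.

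The order of the pair turned over between the groups. FPKM is a level per length, so the genes can be compared with each other on it. In WT, 5830411N06Rik was the lower gene in every library, with FPKM ratios of 5830411N06Rik to Cd163l1 of 0.63, 0.663 and 0.632. In knockout it was the higher gene in every library, with ratios of 1.75, 2.54 and 2.39. The mean ratio was 0.641 ± 0.0184 in WT and 2.23 ± 0.419 in knockout, 3.47 times as high. A ratio within a library does not depend on how libraries are scaled. From the highest group to the lowest, the mean levels ran from 5830411N06Rik in knockout over Cd163l1 in knockout and Cd163l1 in WT to 5830411N06Rik in WT, and only the last pair of neighbours overlapped in range. The ratio was nearly constant over the WT libraries although both levels varied there, with coefficients of variation of 24.3% and 23.6%. In knockout the coefficients were 28.2% for 5830411N06Rik and 18% for Cd163l1. A WT library held only 93 to 151 reads of 5830411N06Rik and 168 to 270 of Cd163l1. Sampling noise at such depth is wider than the spread of the WT ratios, so nothing is read from their closeness.

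**Figure D2:**
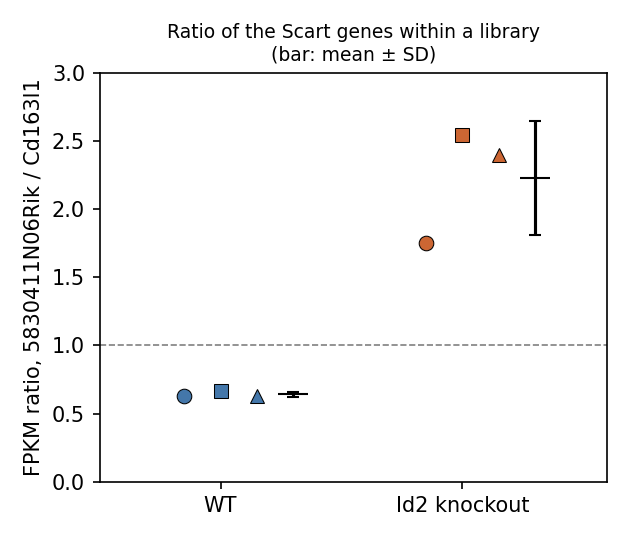
Ratio of the FPKM of 5830411N06Rik to that of Cd163l1 within each library (circle, square and triangle for replicates 1 to 3), with the mean ± SD as a bar and a dashed line where the levels are equal. The 3 WT libraries lie between 0.63 and 0.663, below the line, and the 3 knockout libraries between 1.75 and 2.54, above it.

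The files show no sharing of reads between these genes and others. All expected counts of both genes were whole numbers, within 0.005, whereas between 25% and 26.2% of the counts in a library were not. The counting tool divides reads that fit several genes between them. Of the 36-base windows in the coding transcripts, 0 of 3335 in 5830411N06Rik and 0 of 3520 in Cd163l1 occurred in a GENCODE transcript of any other gene. Cd163l1 was listed at 3454 bases, a length that did not vary between libraries. 5830411N06Rik had an abundance-weighted length, which follows the mix of transcripts, of 3041.71, 3013.14 and 3061.71 bases in WT and 3033.1, 3013.61 and 2995.27 in knockout. These ranges overlapped. The files do not give the share of each transcript.

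Transcripts of B cells varied widely between libraries of the same group, and their part in the spread of the Scart levels was not tested. Summed over the 14 listed B cell markers, WT had 721.7, 2247 and 2611 FPKM and knockout 563.4, 2109 and 499.9. WT replicate 1, the WT library with the least B cell RNA, was also the lowest in both Scart genes, and knockout replicate 2, the knockout library with the most, was the highest in both. The marker sums of the groups overlapped. The Scart levels did not, but those levels chose the genes, so nothing is read from that contrast. A fit that adjusts for B cell markers, chosen after seeing the data, was also run. Its log2 fold changes were 3.1 (SE 0.124) for 5830411N06Rik and 1.25 (SE 0.156) for Cd163l1. In the unadjusted fit without knockout replicate 2 they were 2.59 and 0.94. The 13 B cell markers tested had a median log2 fold change of -0.81, and 0 passed with edgeR, with DESeq2 or with limma, nor were any under 0.05 before adjustment. Of all genes tested, edgeR called 11.9%. When knockout replicate 2 was left out, 9 of the B cell markers were lower (edgeR), as were 1082 of all genes tested.

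Gamma delta T cells are where these receptors are best known, and their part in the Scart levels was not tested. Of the other transcripts of that programme, some were not listed, 7 were too low to test and 5 were tested. Among the tested, Blk (4.4 ± 2.2 FPKM) and Tmem176b (4.18 ± 1.61) had WT means near that of 5830411N06Rik (5 ± 1.21). The 8 gamma delta receptor genes on the list were in none of the libraries. That is no measure of the cells, because none of the 524 T cell receptor and immunoglobulin segment genes in the RefSeq table was listed in any library, those of alpha beta T cells included. Among the other 13 markers, Il17a was in no library, and Sox13, a transcription factor gene of the IL-17 programme, had 15 reads over all 6 libraries. Il23r, the receptor gene for IL-23, had 10 reads, Il17f 6, and Il1r1 10. The highest level of any of the 7 listed markers that were too low to test was 0.68 FPKM, in Maf. Summed over the listed markers, the WT libraries had 10.4, 18.7 and 18.85 FPKM, against 9.5, 15.83 and 7.78 FPKM for knockout. The groups overlapped, and the knockout high was in replicate 2. Among the knockout libraries, Blk (5.28 FPKM), Ccr6 (2.78) and Tmem176a (2.6) were highest there, and Tmem176b and Etv5 in replicate 1. Blk is shared with B cells, whose marker sum was also highest in knockout replicate 2.

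Among the 5 gamma delta markers tested, edgeR, DESeq2 and limma each called 0 higher and 0 lower, and edgeR gave 0 of them an unadjusted p below 0.05. Their median log2 fold change was -0.69, against 0.01 over all genes tested, of which edgeR called 11.9%. Tmem176a and Tmem176b, membrane protein genes of IL-17-making cells, went from 3.1 ± 0.928 to 1.8 ± 0.849 and from 4.18 ± 1.61 to 2.56 ± 0.551 FPKM. Blk, a kinase gene shared with B cells, went from 4.4 ± 2.2 to 2.72 ± 2.26 FPKM and passed only without knockout replicate 2, where it was lower (adjusted p = 0.0417, edgeR). The chemokine receptor gene Ccr6 had a log2 fold change of -0.16 (SE 0.489) and Etv5 one of -0.01 (SE 0.291).

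The other members of the SRCR family gave counts near the background. Of 23 on the list, 20 were listed in some library and 7 were tested, with 0 higher, 1 lower and a median log2 fold change of 0.11, beside 3.14% higher and 8.77% lower over all tested genes. By DESeq2 and by limma 0 were higher as well, and 1 (Prss12) was higher at an unadjusted p under 0.05. Cd5 and Cd6, the SRCR receptors of T cells that dampen receptor signalling, were abundant in both groups. Cd5 had 108.4, 92.95 and 82.49 FPKM in the WT libraries and 122.25, 90.48 and 134.59 in knockout, and Cd6 at 158.97, 167.62 and 135.49 against 180.53, 143.26 and 179.95, so both overlapped. Their log2 fold changes were 0.28 (SE 0.173) and 0.11 (SE 0.136), with adjusted p = 0.338 and 0.648 by edgeR. Even in knockout, 5830411N06Rik thus had a lower level per length than either.

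Lgals3bp, a secreted SRCR protein that binds galectins, was the member that fell, from 136 ± 14.6 to 97.6 ± 12.5 FPKM, or -0.49 in log2 (SE 0.112; edgeR, adjusted p = 0.0189). It lost that call without knockout replicate 1 (adjusted p = 0.0693), knockout replicate 3 (0.12), WT replicate 2 (0.0569) or WT replicate 3 (0.0787). Dmbt1, an SRCR gene of epithelia, overlapped between the groups, at 1.47, 1.76 and 0.17 FPKM in WT and 4.91, 0.47 and 5 in knockout (log2 fold change 1.61, SE 0.799). Prss12, a protease gene, stood at 3.99 ± 0.661 and 6.94 ± 3 FPKM (log2 fold change 0.79, SE 0.324). Both had their lowest knockout value in replicate 2, where the Scart genes were at their highest, and both passed as higher only without it (adjusted p = 0.0282 and 0.0106, edgeR). The lysyl oxidase genes Loxl2 and Loxl3 had log2 fold changes of -0.41 and -0.43 and did not pass. Tmprss13, a membrane protease gene, was the highest of the 13 listed members that were not tested, at 1.21 FPKM in WT replicate 1. Cd163, the macrophage relative, did not exceed 0.43 FPKM and Marco 0.48, and Msr1 was listed only in knockout replicate 2, at 0.27 FPKM.

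**Figure D3:**
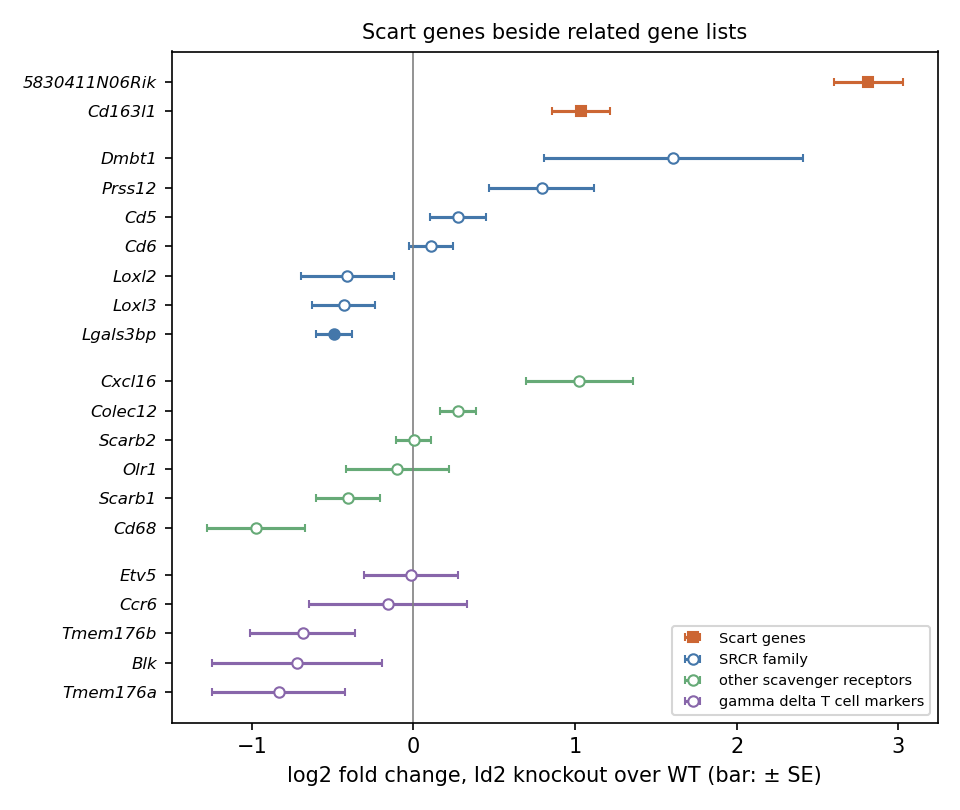
Log2 fold change (horizontal axis, knockout over WT) ± SE of the Scart genes and of the tested members of 3 lists. The lists are the SRCR family, the other scavenger receptors and the gamma delta T cell markers. Filled circles are past an adjusted p of 0.05 (edgeR) and open circles are not. Squares are the Scart genes, for which no test is given. The Scart genes are at 2.81 and 1.03, and Lgals3bp at -0.49 is the filled circle among these 3 lists.

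Scavenger receptors of other classes gave counts near the background as well. Of 18 on the list 6 were tested, and edgeR called 0 higher and 0 lower, with a median log2 fold change of -0.05, where 11.9% of all tested genes were called. At an unadjusted p under 0.05, 2 were higher and 1 lower. By DESeq2, 0 were higher and 1, Cd68, was lower, and by limma 0 were either. Colec12, a collectin of the cell surface, was at 15.7 ± 1.11 and 19.2 ± 1.27 FPKM, and Scarb2, a lysosomal receptor, at 9.99 ± 0.327 and 10.1 ± 0.509. Cxcl16, a membrane chemokine that also binds oxidized lipoprotein, differed by 1.03 in log2 (SE 0.331) at levels under 2 FPKM. Cxcl16 met the filter of 1 FPKM only through the knockout libraries, so its test is not read. Cd68, a lysosomal protein gene of macrophages, went from 12.39, 6.11 and 7.79 to 4.5, 5.3 and 4.22 FPKM, or -0.97 in log2 (SE 0.306; edgeR, adjusted p = 0.0682), and passed as lower without WT replicate 2 (0.038).

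The genes around the pair were read next. RefSeq annotates 54 other genes within 500 kb of its span of the pair, 25 of them olfactory receptor genes or pseudogenes, and 23 of the 54 were listed in some library. Of 8 tested, 0 were higher, also by DESeq2, by limma and at an unadjusted p under 0.05, and 2 were lower, or 4 at an unadjusted p under 0.05. Their median log2 fold change was -0.33. With 3.14% of all tested genes higher, 0 of 8 is near the background. The 2 of 8 lower are a larger share than the 8.77% lower over all tested genes, on few genes and without a set test. For the unadjusted counts no share over all genes is given. DESeq2 called 3 lower, Tubgcp2 with them. Mtg1, a mitochondrial GTPase gene 46.4 kb upstream, had a log2 fold change of -0.09 (SE 0.156). Paox, a polyamine oxidase gene, had one of -0.67 (SE 0.215) and passed as lower without WT replicate 1 (adjusted p = 0.0256, edgeR). The value was -0.26 (SE 0.16) for Echs1, a mitochondrial enzyme gene, -0.16 (SE 0.168) for Zfp511, a zinc finger gene, and -0.39 (SE 0.113) for Tubgcp2, a gamma-tubulin complex gene. Adam8, a membrane metalloprotease gene 202 kb upstream, went the other way from the Scart genes. It fell from 24.08, 12.02 and 19.16 FPKM to 0.24, 1.61 and 0.37, a log2 difference of -4.67 (SE 0.494; edgeR, adjusted p = 0.00041), or -5.9 without knockout replicate 2. Utf1, a chromatin protein gene 252.1 kb upstream, fell from 3.02 ± 0.722 to 0.973 ± 0.435 FPKM by -1.65 in log2 (SE 0.398; edgeR, adjusted p = 0.0246). That call ended when WT replicate 1 (0.0735), WT replicate 3 (0.0591), knockout replicate 1 (0.0848) or knockout replicate 3 (0.112) was left out. Utf1 had 87 reads in WT and 26 in knockout. Downstream, the nearest tested gene was Cyp2e1, 463.1 kb away, at 5.14, 0.73 and 0 FPKM in WT and 1.75, 2.34 and 3.78 in knockout, and it passed as higher only without WT replicate 1 (adjusted p = 0.0476, edgeR). The other 15 listed genes were too low to test and did not exceed 3.9 FPKM. Among them Olfr524, an olfactory receptor gene that RefSeq places within its longer span of Cd163l1, had 0.51, 0.38 and 0.26 FPKM in WT and 0.27, 0.14 and 0.27 in knockout. Adgra1, 319.1 kb upstream, had 0.05, 0.09 and 0.04 FPKM in WT and 0.24, 0.28 and 0.24 in knockout, from 7.3 and 28.34 expected counts.

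**Figure D4:**
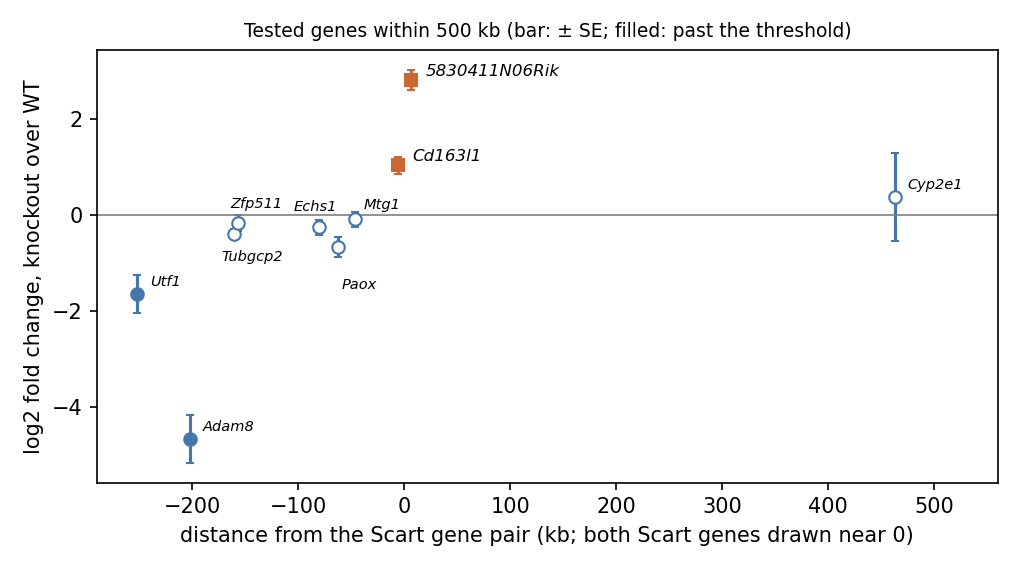
Log2 fold change ± SE of the 8 tested genes within 500 kb against their distance in kb from the Scart pair (negative values lie upstream), with the Scart genes as squares near 0 and filled circles past an adjusted p of 0.05 (edgeR). The Scart genes are at 2.81 and 1.03, while Adam8 at -4.67 and Utf1 at -1.65 are the filled circles and the 6 others are open.

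Among the Id and E protein genes, the factors that connect Id2 to the E box, 5 were tested, 1 rose and 1 fell. Over all tested genes 3.14% were higher and 8.77% lower. Id3, a second inhibitor of E proteins, rose from 123.59, 61.41 and 49.47 to 253.13, 331.52 and 272.62 FPKM, or by 1.84 in log2 (SE 0.299; edgeR, adjusted p = 0.00354), and Id2 fell as given above. Tcf3, the E2A gene, went from 15.5 ± 0.732 to 10.4 ± 2.78 FPKM (adjusted p = 0.0695), and Tcf12 from 15.5 ± 1.06 to 20.7 ± 5.48 (adjusted p = 0.177, edgeR). Tcf3 was lowest, at 8.4 FPKM, in knockout replicate 2, where both Scart genes were highest. Tcf3 passed as lower without knockout replicate 1 (adjusted p = 0.0109, edgeR).

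The genes whose levels over the 6 libraries ran most like those of the Scart genes were found by the root mean square difference of log2 CPM, each gene centred on its own mean. For 5830411N06Rik the nearest was Igsf23, an immunoglobulin superfamily gene, at a difference of 0.42. Its FPKM values were 0.44, 1.8 and 0.95 in WT and 5.81, 13.29 and 5.24 in knockout, so that it too was highest in knockout replicate 2. Then came Slc28a2b, of the nucleoside transporter family (0.5), Pdlim4, a cytoskeletal adaptor gene (0.6), Slc6a19, a neutral amino acid transporter gene (0.6), and Klra23, a Ly49 receptor gene (0.66). Slc28a2b was even over the knockout libraries, at 55.97, 54.91 and 55.25 FPKM, and so lacked the peak of 5830411N06Rik there. Klra23 had 51.09 expected counts in WT and 151.9 in knockout, which are not whole, so its share of reads is uncertain. Pdlim4 rested on 14 reads in WT, with 0 FPKM in WT replicate 1, and 93 in knockout.

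For Cd163l1, whose fold was smaller, the nearest genes lay at smaller differences. They were Ift80, of ciliary transport (0.17), Lrig1, of growth factor receptor turnover (0.17), Csf2ra, the alpha chain of the GM-CSF receptor (0.18), the carbonic anhydrase gene Car7 (0.19) and 4933404K08Rik (0.19). The last 3 had few reads: 42.89 in WT and 72.19 in knockout for Csf2ra, 46 and 78 for Car7, 21 and 38.99 for 4933404K08Rik. Some of these counts are not whole. 4933404K08Rik met the filter of 1 FPKM only through the knockout libraries. Ift80 had 8.71, 9.5 and 11.67 FPKM in the WT libraries and 21.8, 22.85 and 20.53 in knockout. Lrig1 shared both the WT low point and the knockout high point of Cd163l1, at 2.06, 2.74 and 3.14 and at 4.18, 5.71 and 4.54 FPKM. The Scart genes were not each other's nearest: Cd163l1 was place 35 for 5830411N06Rik, and 5830411N06Rik was place 9770 for Cd163l1. The difference is the same 0.89 in both directions. It also counts the size of the fold, so these places do not say that the pair ran apart. Both genes were lowest in WT replicate 1 and highest in knockout replicate 2.

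**Figure D5:**
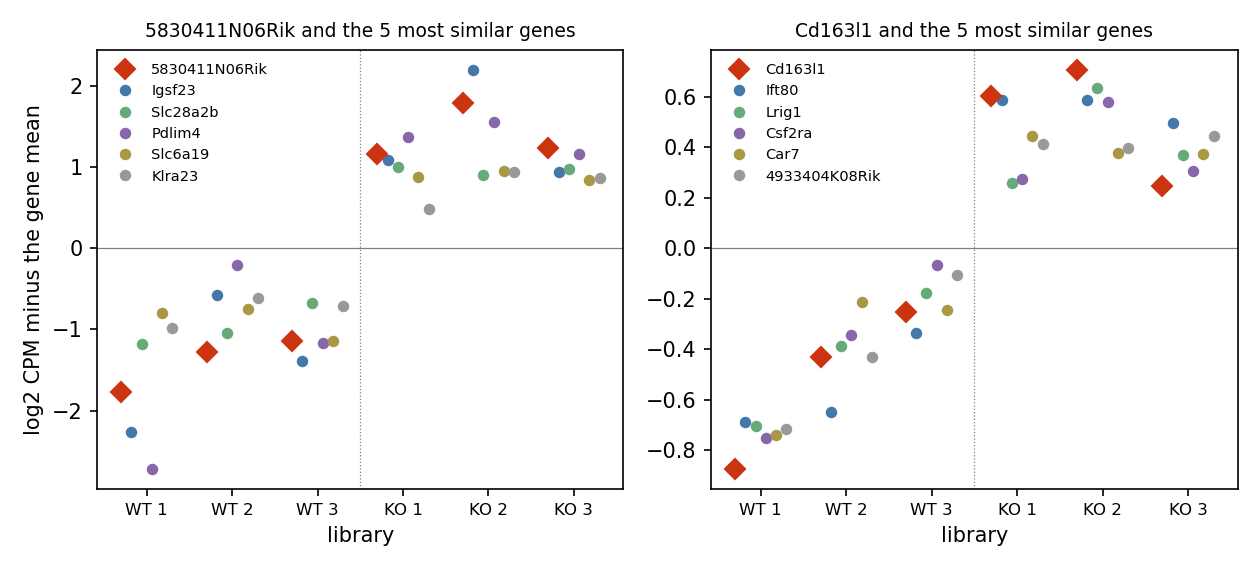
Log2 CPM minus the gene's own mean over 6 libraries (vertical axis, separate scales) for each Scart gene (diamonds) and the 5 genes with the smallest root mean square difference from it (circles), by library. 5830411N06Rik lies further from its nearest genes (0.42 to 0.66) than Cd163l1 does from its own (0.17 to 0.19).

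Lists of other cells and of the T cell receptor complex were read beside the Scart genes. Over all tested genes, edgeR called 3.14% higher and 8.77% lower, and each list here is short. Of 14 receptor complex and coreceptor genes, 0 were higher and 1, Thy1, lower by edgeR (log2 fold change -0.36, adjusted p = 0.0397), a call lost whichever library was left out, with the replicate block (0.0501) and with no filter (0.0604). DESeq2 called 1 higher, Cd28, and edgeR called 2 higher, Cd28 and Zap70, without knockout replicate 2. The NK cell list summed to 1331, 579.5 and 850.9 FPKM in WT and 39.76, 87.03 and 38.37 in knockout, and Gzma, a granzyme gene that effector CD8+ T cells also express, made up 1288.67, 559.57 and 829.65 of the WT sums. The defining NK gene Ncr1 was listed in 2 knockout libraries and no WT library, and reached 0.18 FPKM in knockout. Macrophage and monocyte markers summed to between 26.2 and 42.1 in WT and between 33.2 and 39 in knockout. With edgeR, with DESeq2 or with limma 0 of 6 were called, and 1, Itgam, was lower at an unadjusted p under 0.05. Itgam passed as lower (edgeR) with the B cell covariate, without a filter, and without WT replicate 2 or WT replicate 3. It met the filter only through the WT libraries, so nothing is read from its calls. Markers of CD4 and regulatory T cells summed to between 118 and 170 FPKM in WT and between 121 and 124 in knockout. Of 7, edgeR called 2 higher (Ikzf2 and Ctla4) and 2 lower (Il2ra and Tnfrsf4). Ikzf2 met the filter only through the knockout libraries, so nothing is read from its call. Leaving out knockout replicate 1 left 1 higher and 1 lower, leaving out knockout replicate 3 left 0 and 1, and leaving out WT replicate 2 left 1 higher. Of 2 stromal markers tested, Sparc stood at 1.12, 4.08 and 2.45 FPKM in WT and at 0.33, 0 and 0.05 in knockout. Sparc met the filter of 1 FPKM only through the WT libraries, so its test is not read. The part of these cells in the Scart levels was not tested.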

How the data were processed

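Levels were read from 1 table per library. Per the file headers, the columns used from the deposited tables are the expected count (estimated reads of a gene), the FPKM and an abundance-weighted transcript length. CASAVA, Bowtie2, RSEM and the mm10 build are listed in the submitters' processing notes, with no version. The sources used here do not give the strand setting of the counting, and antisense reads may be included. Genes missing from a table were taken as 0, and 16707 of the 16749 gene numbers had a RefSeq symbol.

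Expected counts were rounded, scaled by TMM and tested with edgeR 4.0.16 (quasi-likelihood, two-sided; R 4.3.3). Genes entered where 3 or more of 6 libraries reached 1 FPKM, with Benjamini-Hochberg adjustment over all 10890 and a threshold of 0.05. The fit was checked on simulated counts. The Scart genes, the lists and the tests were chosen with earlier results of these data known. Named were the Scart genes, SRCR genes at 1 FPKM or more and the tested genes within 500 kb, with Olfr524 and Adgra1. Also named were up to 4 members of each other list by p and the 5 nearest genes in pattern. Other names outside this rule, such as Sox13, Cd8a, Marco and Ncr1, were chosen after their values were seen. Lists got counts and medians and no set test, and 1 listed gene is not reported here. Alternatives were DESeq2 1.42.0, its size factors, limma 3.58.1 on log2(FPKM + 1) and log2(FPKM + 0.1), a minimum of 5 FPKM, no filter, a block for the replicate number, a B cell covariate (added after seeing the data) and each library left out. Between libraries of 1 group, chi-square per degree of freedom was 5.62 to 18.6, far above sampling noise, so no library was a duplicate. Python 3.11.15 (pandas 2.3.3, matplotlib 3.10.9) did the rest.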

Additional observations from a re-analysis of the deposited data

How the results depend on the processing

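The log2 fold change of 5830411N06Rik lay between 2.5 and 3.1 and that of Cd163l1 between 0.89 and 1.25 over 16 alternatives each. With 1 library left out they were 2.59 to 2.94 and 0.89 to 1.18. The mean ratio of the pair in WT was 0.563 from expected counts and 0.684 from FPKM + 1, and in knockout 1.94 and 2.15, so the order within each group held. With 1 library left out, the higher genes numbered 84 to 480 and the lower 517 to 1082; SRCR genes 0 to 2 and 0 to 1; genes within 500 kb 0 to 1 and 1 to 2. The lower scavenger receptors numbered 0 to 1, gamma delta markers 0 to 1 and Id and E protein genes 1 to 2. Scavenger receptors that were lower numbered 1 with the B cell covariate or DESeq2 and 2 without a filter. Lower Id and E protein genes numbered 2 with the B cell covariate, DESeq2, no filter or the replicate block, which added Tcf3. With the replicate block 1 gene within 500 kb was lower, as Utf1 lost its call (adjusted p = 0.0574, edgeR), as did Thy1 among the T cell genes (0.0501), and 295 and 888 genes were higher and lower. The log2 fold changes were 2.81 and 1.04 with it. Deviations of libraries with the same number correlated at 0.118, 0.075 and -0.03, within the range of -0.187 to 0.135 for unlike numbers. This showed no pairing by number, but with 3 libraries per group it cannot exclude one. Depth limits the weakest gamma delta markers: Il17f had 6 reads in all libraries together.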
